A study of Homo sapiens with 8 samples.

Results

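The kinesin superfamily is the set of ATP-driven motor proteins that move along microtubules, and its genes were taken from the count table as every row whose symbol is KIF followed by a number and an optional letter, or KIFC followed by a digit. The rule found 43 of 35238 gene symbols. By the roles known for their proteins, 14 were grouped as spindle kinesins, 15 as cargo kinesins, 6 as cilium kinesins and 8 as other kinesins. Of the 43 genes, 40 had enough counts to be tested. KIF5A and KIF12 had enough only through drug libraries, and KIF19 and KIF25 only through those of quisinostat. KIF5A, KIF12 and KIF19 could thus hardly be called against the control other than as higher. KIF2B had 0 counts in all 8 libraries, KIF4B had 0 to 3 and KIF28P had 0 to 6, so these 3 were not tested.

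Spindle kinesins are made mainly by dividing cells. They separate the centrosomes, set the length of spindle microtubules, align chromosomes and build the midzone on which the cell is divided. Cargo kinesins carry vesicles, mitochondria and RNA along microtubules, and several of them are known above all from the axons of neurons.

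RNA was sequenced from MP38, a BAP1-mutant uveal melanoma cell line, after 24 h in medium with 0.1% DMSO alone (control) or with 1 drug in the same 0.1% DMSO, at 40 nM for romidepsin, 40 nM for quisinostat and 1200 nM for mivebresib. BAP1 is a deubiquitinase that removes a polycomb mark from chromatin, and all 4 groups carried its loss. Romidepsin is an inhibitor of class I histone deacetylases (HDAC), quisinostat is an HDAC inhibitor, and mivebresib blocks the bromodomain and extra-terminal (BET) proteins that read histone acetylation. Each group had 2 libraries from separate wells of the same cell line, so the p-values measure the spread between wells of 1 line.

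The libraries held 28483235 to 29359024 counts, and 15085 genes were tested. Of these, 15.8% were lower and 15.2% higher with romidepsin than in the control, 25.1% were lower and 28.0% higher with quisinostat, and 24.1% were lower and 22.2% higher with mivebresib (adjusted p below 0.05 by the quasi-likelihood test of edgeR, with Benjamini and Hochberg's adjustment). Scaled by library size alone, the quisinostat comparison had 2144 genes lower and 5625 higher in place of 3793 and 4231, and the romidepsin comparison 1700 and 2787 in place of 2377 and 2293. The 2 control libraries differed from each other by a chi-square of 58.15 per degree of freedom, against 9.521 to 9.785 within the drug groups. The summed level of 7 melanocytic markers was 4190 to 5450 CPM (counts scaled by the effective library size) in the control, 4740 to 5030 with romidepsin, 3560 to 4110 with quisinostat and 3700 to 3780 with mivebresib. Most of that sum was TYRP1, a pigment cell enzyme, which was not called with any drug. Of the 6 melanocytic markers tested, 1, 3 and 4 were lower with the 3 drugs in that order and none was higher. SOX10, a melanocyte lineage factor, fell by 0.39, 0.92 and 1.93 on the log2 scale. MITF, the master regulator of melanocytes, fell by 1.39 with quisinostat and 1.47 with mivebresib, and MLANA by 1.05 and 1.33. The summed level of 7 fibroblast markers was 14.5 to 22.8 CPM in the control, 20.5 to 24.9 with romidepsin, 34.8 to 35.8 with quisinostat and 8.38 to 10.6 with mivebresib. Most of it was PDGFRA, called higher with quisinostat (log2 fold change 0.645) and lower with mivebresib (-1.04). COL1A1 was higher with romidepsin (1.51) and quisinostat (2.58), and PDGFRB, at few counts, was lower with mivebresib (-2.17). The 5 immune markers summed to 61.2 to 83.3 CPM over the libraries, nearly all of it CD68, which was not called with any drug. The 3 endothelial markers summed to 0.177 to 0.764 CPM, and PECAM1 was called higher with quisinostat (log2 fold change 1.78, adjusted p = 0.0221). CD3E, a T cell marker, and CDH5, an endothelial marker, were at 0 in every library. The part of these marker lists in the results was not tested. In bulk RNA, fewer cells of a type and less RNA per cell cannot be told apart.

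Of the 12 spindle kinesins tested, 11 were below the control after romidepsin, 10 after quisinostat and 11 after mivebresib, and none was higher with any drug, where 15.8%, 25.1% and 24.1% of all genes were lower. Their median log2 fold change was -0.74, -1.01 and -0.68 for the 3 drugs in that order, beside medians of -0.012, -0.0036 and 0.0067 over all genes tested. The same 9 genes were lower with every drug, namely KIF14, KIF15, KIF18B, KIF20A, KIF22, KIF23, KIF2C, KIF4A and KIFC1. The 3 comparisons share the 2 control libraries, and the share of all genes lower with every drug was not counted. Spindle kinesins made up 20.5% and 21.7% of all kinesin counts in the 2 control libraries and 13.1% to 14.6% in the 6 drug libraries. In CPM per kilobase of exon, KIF11 was the highest spindle kinesin in the control, at 21.7 ± 2.69 (SD, n = 2), and ranked 4 among all 43 kinesins. Without the mivebresib library of replicate 1 the number lower with mivebresib was 7, and without that of replicate 2 it was 8.

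**Figure D1:**
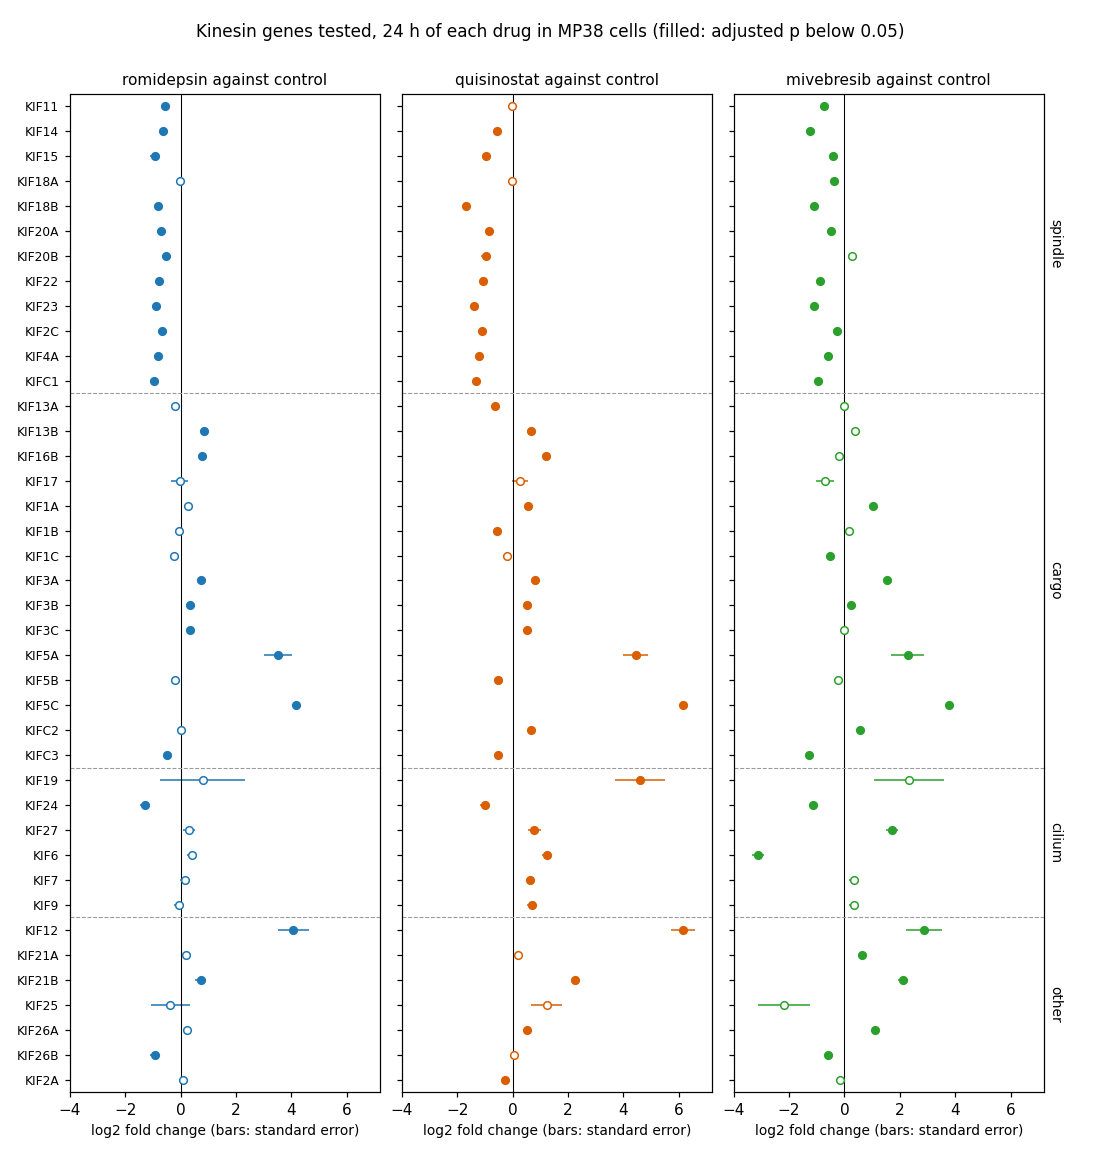
Log2 fold change of each of the 40 tested kinesin genes against the control, with bars for the standard error, for romidepsin, quisinostat and mivebresib; filled points had an adjusted p below 0.05 and dashed lines part the roles. The spindle kinesins sit at or left of 0 except KIF20B with mivebresib (0.28), while KIF5C lies at 4.17, 6.17 and 3.79.

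Promoters of many genes transcribed late in the cell cycle carry a CCAAT box and a short element called CHR (cell cycle genes homology region). Both were searched in RefSeq promoter windows of the GRCh38.p14 build, from 250 bases before to 50 bases after each transcript start, as the letters CCAAT and as TTTGAA or TTCGAA, on both strands. A window was given for 34 of the 43 kinesins. KIF13B, KIF19, KIF21B, KIF26B, KIF27, KIF28P, KIF5A, KIFC2 and KIFC3 had none. Stretches of KIF11 and KIF4A are shown because KIF4A was lower with all 3 drugs and KIF11 with only romidepsin and mivebresib, and that of KIF5C because it is the cargo motor with the largest change. Each is printed 5′ to 3′ on the gene's strand with matches in capitals, and bases in an annotated exon of the gene were left out. On the gene's strand, a match of the other strand reads ATTGG or TTCAAA. The KIF5C stretch holds no match, but its window has a CCAAT box at -222 from the transcript start, outside the stretch. KIF5C also had another window, without a match. The KIF11 stretch is chr10:92593030-92593129 on the plus strand, that of KIF4A is chrX:70290004-70290089 on the plus strand, and that of KIF5C is chr2:148875127-148875226 on the plus strand.
KIF11: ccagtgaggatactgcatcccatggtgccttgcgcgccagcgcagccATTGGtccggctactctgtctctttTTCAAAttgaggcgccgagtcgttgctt
KIF4A: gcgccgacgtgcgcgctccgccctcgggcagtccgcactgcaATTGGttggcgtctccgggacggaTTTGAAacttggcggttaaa
KIF5C: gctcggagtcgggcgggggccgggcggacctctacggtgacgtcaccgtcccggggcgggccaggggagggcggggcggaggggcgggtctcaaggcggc

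For KIF23 and KIF18A, whose RefSeq starts lie within exons of longer annotated transcripts, the 30 bases around the CHR are shown, at chr15:69414274-69414303 on the plus strand and chr11:28108157-28108186 on the minus strand. The KIF23 stretch holds the CCAAT box as well.
KIF23: gacgggcgctgATTGGcccgTTTGAAatgc
KIF18A: gctgaggaaagtggcttgggTTTGAAtatt

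A CHR was present in 11 of 14 spindle kinesins (78.6%) and 1 of 11 cargo kinesins with a window, KIF5B, against 19.5% of 27305 genes. A CCAAT box was present in 11 of 14 spindle kinesins, in 4 of 11 cargo kinesins and in 39.7% of all genes. Both were found in 10 of 14 spindle kinesins, in 1 of 11 cargo kinesins and in 7.85% of all genes. KIF2B and KIF2C had neither in their windows, KIF15 had a CHR alone and KIF20A had 2 CCAAT boxes alone. These matches are a description of the letters in the windows and do not show that a factor binds there. The genes that held both included KIF18A, which was not lower with either HDAC inhibitor, and KIF20B, which was not lower with mivebresib.

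**Figure D2:**
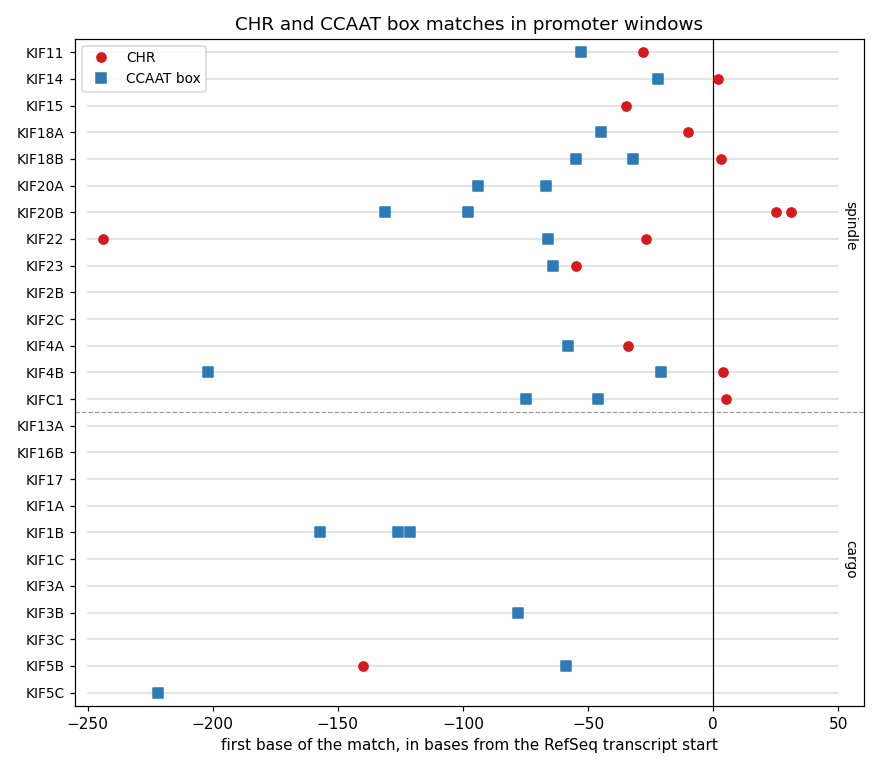
Distance of each CHR (red circles) and CCAAT box (blue squares) from the RefSeq transcript start, in bases, in the promoter windows of 14 spindle and 11 cargo kinesins; genes with several windows have all their matches on 1 line. Most spindle kinesins carry a CCAAT box upstream of a CHR near the start, while KIF5B is the cargo kinesin with both.

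KIF18B, a plus-end motor that shortens astral microtubules, had the largest decrease among the spindle kinesins with quisinostat. The gene spans chr17:44924709-44947711 (GRCh38). It was at 14.0 and 14.4 CPM in the control libraries, 8.07 and 8.02 with romidepsin, 4.40 and 4.43 with quisinostat and 6.55 and 6.76 with mivebresib. Every drug library was below both control libraries, and the quisinostat pair was the lowest. The log2 fold change was -0.82 with romidepsin (SE 0.10, adjusted p = 0.000705), -1.69 with quisinostat (SE 0.10, adjusted p = 6.32e-06) and -1.09 with mivebresib (SE 0.10, adjusted p = 6.58e-05). The difference between quisinostat and romidepsin, -0.87 on the log2 scale, was itself past the threshold (adjusted p = 0.000653).

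KIF23 (chr15:69414246-69448427), whose protein is the motor of the centralspindlin complex that marks the plane of division, was at 91.6 and 99.0 CPM in the control. Its level was 54.9 and 48.5 CPM with romidepsin, 35.7 and 36.9 with quisinostat and 43.5 and 45.1 with mivebresib, so that no drug library overlapped the control. KIF23 fell by 0.88, 1.39 and 1.11 on the log2 scale with romidepsin, quisinostat and mivebresib (adjusted p = 0.000265, 7.02e-06 and 3.04e-05). RACGAP1, its non-motor partner in that complex, was lower with all 3 drugs as well. KIF4A, a chromosome-bound motor that acts with PRC1 at the midzone, was at 37.2 and 42.5 CPM in the control and 17.1 and 17.4 CPM with quisinostat, where it fell by 1.21 (adjusted p = 2.00e-05). With romidepsin and mivebresib it fell by 0.83 and 0.61. KIF4B, a near-identical copy of KIF4A without introns, had at most 3 counts in a library, and reads that match both genes cannot be told apart.

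KIFC1, a minus-end motor that focuses spindle poles and clusters extra centrosomes, was at 21.9 and 25.5 CPM in the control and between 8.63 and 12.8 CPM in all 6 drug libraries. Its log2 fold changes were -0.98, -1.32 and -0.95, and of the direct comparisons only mivebresib against quisinostat passed the test (0.37 higher, adjusted p = 0.038). KIF22, which pushes chromosome arms away from the poles, fell by 0.78, 1.05 and 0.87 on the log2 scale. Annotated genes on the opposite strand cover 12.7% of the exon bases of KIFC1 and 13.0% of those of KIF22. RPL12P1, the gene over KIFC1, had 0 or 1 count in a library, and that over KIF22 had no counts listed. KIF20A, a cytokinesis motor that carries the chromosomal passenger complex, fell by 0.70, 0.85 and 0.47. With 1 library left out at a time, its mivebresib value ran from -0.58 to -0.32, and that call was not always kept. KIF15, a motor that can hold the spindle open beside KIF11, fell by 0.94, 0.95 and 0.43. KIF2C, which takes tubulin off microtubule ends at kinetochores, fell by 0.67, 1.09 and 0.29. The mivebresib decreases of KIF15 (adjusted p = 0.042) and KIF2C (adjusted p = 0.041) lay near the threshold and were lost with DESeq2, with library size alone and with upper-quartile factors.

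**Figure D3:**
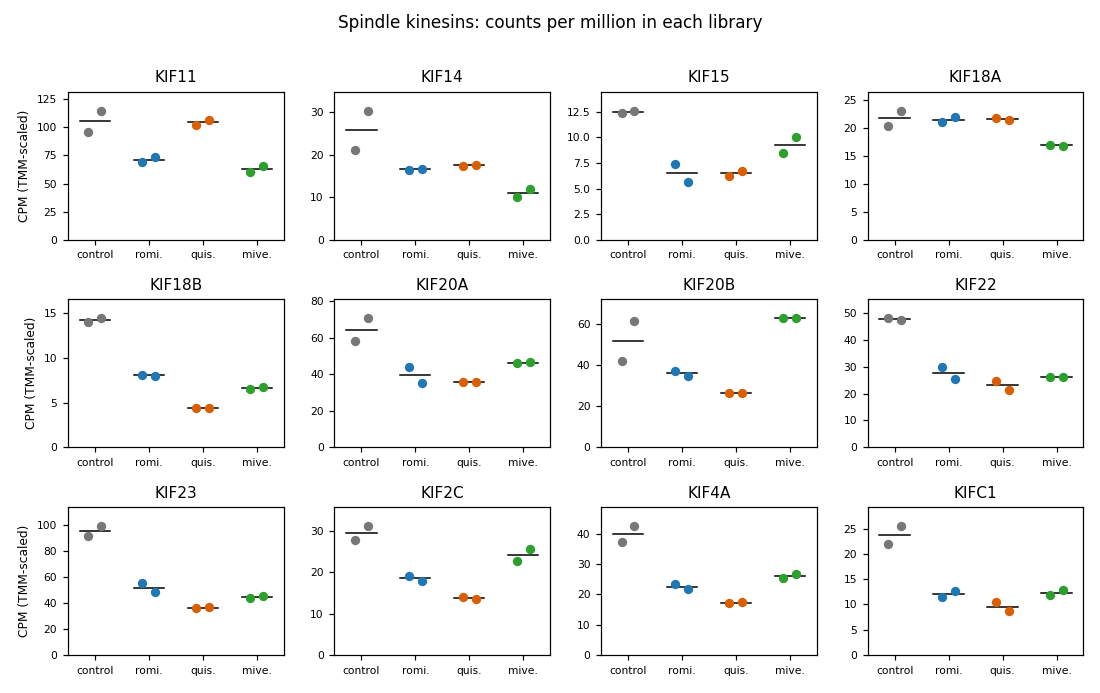
CPM (TMM-scaled) of the 12 tested spindle kinesins in each library; points are the 2 libraries of a group, lines their mean, and each axis starts at 0. KIF18B falls from 14.0 and 14.4 CPM to 4.40 and 4.43 with quisinostat, KIF11 stays between 96.2 and 115 CPM in the control and quisinostat libraries, and KIF20B is at 62.7 CPM in both mivebresib libraries.

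KIF11 (chr10:92593286-92655395), the motor that pushes centrosomes apart and the target of antimitotic kinesin inhibitors, was at 96.2 and 115 CPM in the control and 102 and 107 CPM with quisinostat. It was at 69.0 and 73.4 CPM with romidepsin and 59.9 and 65.2 CPM with mivebresib. KIF11 thus fell by 0.57 with romidepsin (SE 0.10, adjusted p = 0.00399) and by 0.75 with mivebresib (SE 0.10, adjusted p = 0.000468), while the quisinostat libraries overlapped the control (log2 fold change -0.01, SE 0.10, adjusted p = 0.924). Between the drugs, KIF11 was 0.55 higher with quisinostat than with romidepsin (adjusted p = 0.00379) and 0.74 lower with mivebresib than with quisinostat on the log2 scale.

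KIF18A, which dampens chromosome movements at the metaphase plate, was at 20.3 and 23.0 CPM in the control, 21.0 and 21.9 CPM with romidepsin, 21.8 and 21.4 CPM with quisinostat and 16.9 and 16.8 CPM with mivebresib. The 4 HDAC inhibitor libraries lay within the range of the control, and the mivebresib libraries lay below it (log2 fold change -0.36, SE 0.09, adjusted p = 0.0114). With 1 library left out at a time, the mivebresib value ran from -0.43 to -0.27, and its call was not always kept. Mivebresib also differed directly from quisinostat in KIF18A (-0.36, adjusted p = 0.00901). KIF14, a cytokinesis motor that binds PRC1 and citron kinase, was at 21.2 and 30.4 CPM in the control, 16.5 and 16.7 with romidepsin, 17.4 and 17.6 with quisinostat and 9.98 and 11.9 with mivebresib. Its decrease was largest with mivebresib (-1.23, adjusted p = 0.000486), and mivebresib was lower than romidepsin by 0.60 and than quisinostat by 0.68 on the log2 scale.

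KIF20B, a cytokinesis motor, was at 42.0 and 61.3 CPM in the control, 37.3 and 34.7 CPM with romidepsin, 26.2 and 26.6 CPM with quisinostat and 62.7 CPM in both mivebresib libraries. The quisinostat decrease was 0.97 on the log2 scale (SE 0.15, adjusted p = 0.000966). The romidepsin decrease of 0.52 (adjusted p = 0.0333) was lost with library size alone and with upper-quartile factors. With mivebresib the log2 fold change was 0.28 (adjusted p = 0.161), and KIF20B was 1.25 higher with mivebresib than with quisinostat (adjusted p = 0.000201). Without the control library of replicate 2, the higher of the 2 for KIF20B, the gene was called higher with mivebresib, and it was then the 1 spindle kinesin so called.

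Between the 2 HDAC inhibitors at the same 40 nM, 4 spindle kinesins were lower and 1 higher with quisinostat, where 14.6% and 21.0% of all genes were. The lower genes were KIF18B, KIF23, KIF2C and KIF4A, and the higher gene was KIF11. Mivebresib against romidepsin gave 2 lower and 3 higher, where 25.2% and 23.7% of all genes were lower and higher. Mivebresib against quisinostat gave 3 lower and 8 higher, where 31.5% and 26.2% of all genes were. The 3 lower genes were KIF11, KIF14 and KIF18A. With either control library left out, 7 spindle kinesins were lower with quisinostat than with romidepsin, and 2 were lower without the romidepsin library of replicate 1 or without either quisinostat library. The 8 higher with mivebresib than with quisinostat became 5 without the quisinostat or the mivebresib library of replicate 1 and 4 without the mivebresib library of replicate 2. The 2 lower with mivebresib than with romidepsin became 4 without either control library and 0 or 1 without any library of those drugs, and the 3 higher became 1 without the romidepsin or the mivebresib library of replicate 2. Scaled by library size alone, 2 were lower with quisinostat than with romidepsin, 4 were lower with mivebresib than with romidepsin and 4 were higher with mivebresib than with quisinostat. Mivebresib was given at 1200 nM, so dose and mechanism cannot be told apart in the last 2 comparisons. Equal doses are not equal potency either, and the paper found romidepsin more potent than quisinostat on MP38 viability. Dose and drug thus cannot be told apart between the HDAC inhibitors.

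The proteins that work with spindle kinesins were described from a list of 21 genes. Of these, 17 were lower in the romidepsin comparison, 19 in that of quisinostat and 16 in that of mivebresib, and none was higher, where 15.8%, 25.1% and 24.1% of all genes were lower and 15.2%, 28.0% and 22.2% higher. Their medians were -0.64, -0.95 and -0.65. TPX2, which recruits KIF11 and KIF15 to spindle microtubules, fell by 0.59, 0.93 and 1.08 on the log2 scale. PRC1, the midzone bundler that KIF4A binds, fell by 0.64, 0.95 and 1.09. AURKB, the kinase of the chromosomal passenger complex, fell by 0.88, 1.51 and 0.70. The largest changes in the list were those of ANLN, a scaffold of the contractile ring, and SKA3, a kinetochore protein, which fell by 1.85 and 1.77 with quisinostat, and of AURKA, a centrosome kinase, which fell by 1.68 with mivebresib. CENPE, a kinetochore kinesin whose symbol lies outside the KIF series, did not pass the test with any drug (log2 fold change -0.46 with romidepsin, -0.21 with quisinostat and -0.02 with mivebresib, adjusted p = 0.0674, 0.32 and 0.941).

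Cargo kinesins did not move in 1 direction. Of the 15 tested, 7 were higher and 1 lower with romidepsin, where 15.2% and 15.8% of all genes were higher and lower. With quisinostat 9 were higher and 4 lower, beside 28.0% and 25.1% of all genes, and with mivebresib 6 were higher and 2 lower, beside 22.2% and 24.1%. The medians were 0.27, 0.52 and 0.15 on the log2 scale. The 7, 9 and 6 higher genes include KIF5A, which had enough counts to be tested only through drug libraries. KIF3A, KIF3B, KIF5A and KIF5C were higher and KIFC3 was lower with every drug, in comparisons that share the control libraries. The share of all genes called in the same direction with every drug was not counted. The calls of KIF3B and KIF5A with mivebresib, and of KIF3B and KIFC3 with romidepsin, were not kept under every alternative. The number lower with romidepsin was 0 without the romidepsin library of replicate 2 and 2 without either control library. Cargo kinesins made up 73.1% and 72.3% of kinesin counts in the control and 78.2% to 79.2% in the drug libraries, and their summed level was 1750 and 1910 CPM in the control and 1820 to 2010 CPM in the drug libraries.

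KIF5C (chr2:148875250-149026759), a kinesin-1 heavy chain best known from motor neurons, had the largest increase of any tested cargo kinesin with each drug. It had 61 and 86 counts in the control libraries, 1462 and 1320 with romidepsin, 5801 and 6256 with quisinostat and 982 and 1034 with mivebresib. In CPM these were 2.16 and 3.14, 50.2 and 45.5, 184 and 199, and 35.9 and 37.2. The 4 groups did not overlap. KIF5C rose by a log2 fold change of 4.17 with romidepsin (18.1-fold, SE 0.15, adjusted p = 1.08e-05), 6.17 with quisinostat (72.2-fold, SE 0.16, adjusted p = 5.97e-07) and 3.79 with mivebresib (13.8-fold, SE 0.15, adjusted p = 1.52e-06). Quisinostat exceeded romidepsin by 2.00 on the log2 scale (adjusted p = 4.04e-05), and mivebresib was below romidepsin by 0.39 (adjusted p = 0.0247).

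The kinesin-1 heavy chains KIF5A, KIF5B and KIF5C can stand in for each other in the motor, so their levels were also compared per kilobase of exon. KIF5B (chr10:32009010-32056431), the heavy chain of most tissues, was the highest of all 43 kinesins in CPM per kilobase in every group, at 87.3 ± 5.07 (SD, n = 2) in the control. It held 99.7% and 99.6% of the summed level of the 3 genes in the control libraries, 93.2% and 93.7% with romidepsin, 74.8% and 73.9% with quisinostat and 94.9% in both mivebresib libraries. KIF5C held 0.279% and 0.374% of that sum in the control, 6.62% and 6.08% with romidepsin, 24.8% and 25.7% with quisinostat and 4.97% and 5.06% with mivebresib. Of the counts of the 3 genes, not divided by length, KIF5C held 0.437% and 0.585% in the control and 34.0% and 35.1% with quisinostat. The shares thus depend on the lengths used. The summed level per kilobase was 83.9 and 91.2 CPM in the control libraries. It was 82.3 and 81.2 with romidepsin, 80.5 and 84.3 with quisinostat and 78.3 and 79.8 with mivebresib. The quisinostat pair overlapped the control, and the romidepsin and mivebresib pairs lay below it. KIF5B fell by 0.51 with quisinostat (SE 0.08, adjusted p = 0.00114) and had log2 fold changes of -0.19 with romidepsin and -0.22 with mivebresib that missed the threshold (adjusted p = 0.115 and 0.0629).

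**Figure D4:**
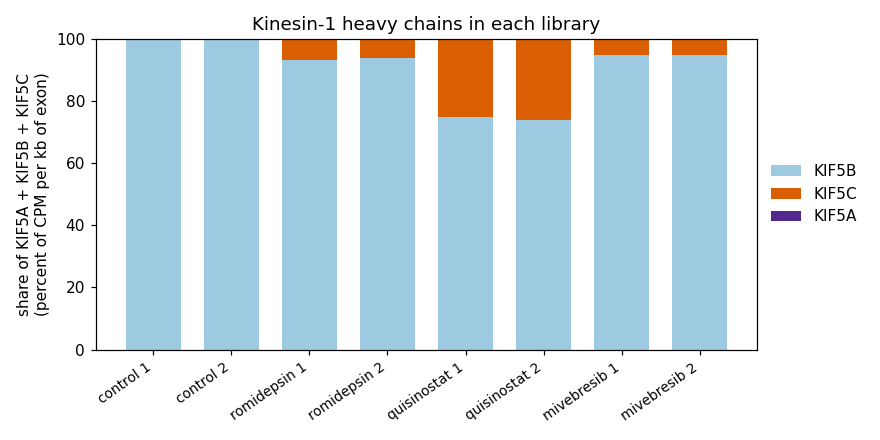
Share of each kinesin-1 heavy chain in the summed CPM per kilobase of KIF5A, KIF5B and KIF5C, in percent, for each of the 8 libraries. KIF5C takes 24.8% and 25.7% in the quisinostat libraries and under 0.4% in the control libraries; KIF5A, at most 0.404%, is too thin to see.

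KIF5A (chr12:57549998-57586632), the third heavy chain and a neuronal gene, had 3 and 2 counts in the control libraries, 25 and 37 with romidepsin, 63 and 67 with quisinostat and 16 and 9 with mivebresib. The ratio of counts, scaled by the effective library size, was 11.9 with romidepsin (95% interval 4.82 to 37.8). It was 22.9 with quisinostat (9.59 to 71.9) and 5.04 with mivebresib (1.90 to 16.9). These exact intervals cover counting error only. The test called KIF5A higher with all 3 drugs (adjusted p = 0.00146, 8.37e-05 and 0.0123), and the mivebresib call was lost without the mivebresib library of replicate 1. Even with quisinostat its level was 0.33 CPM per kilobase, against 61.3 for KIF5B.

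KIF1A (chr2:240713761-240821036), the kinesin-3 that carries synaptic vesicle precursors in axons, was already abundant in the control at 179 and 237 CPM. It was at 257 and 243 CPM with romidepsin, 287 and 323 CPM with quisinostat and 421 and 433 CPM with mivebresib. The romidepsin libraries were just above the control and did not pass the test (log2 fold change 0.27, SE 0.13, adjusted p = 0.158). KIF1A rose by 0.55 with quisinostat (adjusted p = 0.00769), a call lost without the quisinostat library of replicate 2, and by 1.04 with mivebresib (adjusted p = 0.000363). Unlike KIF5C, it was higher with mivebresib than with quisinostat (0.48, adjusted p = 0.0129) and than with romidepsin (0.77, adjusted p = 0.0016). By CPM per kilobase of exon KIF1A ranked 9 among the 43 kinesins in the control and 4 with mivebresib.

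The kinesin-2 motors KIF3A, KIF3B and KIF3C move along axons and cilia, and KIF3A and KIF3B form a trimer with KIFAP3. KIF3A was at 25.6 and 28.5 CPM in the control, 49.4 and 41.0 CPM with romidepsin, 46.3 and 48.7 CPM with quisinostat and 72.7 and 83.5 CPM with mivebresib, so that no drug library overlapped the control. It rose by 0.74, 0.81 and 1.53 on the log2 scale (adjusted p = 0.00235, 0.000535 and 2.39e-05), and mivebresib exceeded quisinostat by 0.72. KIF3B rose by 0.33, 0.52 and 0.22, the last near the threshold (adjusted p = 0.037) and lost without the filter on low counts. KIF3C rose by 0.33 and 0.51 with romidepsin and quisinostat and was at -0.01 with mivebresib (adjusted p = 0.905). KIFAP3 rose by 0.43 and 0.89 with the HDAC inhibitors and had a log2 fold change of 0.10 with mivebresib (adjusted p = 0.34).

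**Figure D5:**
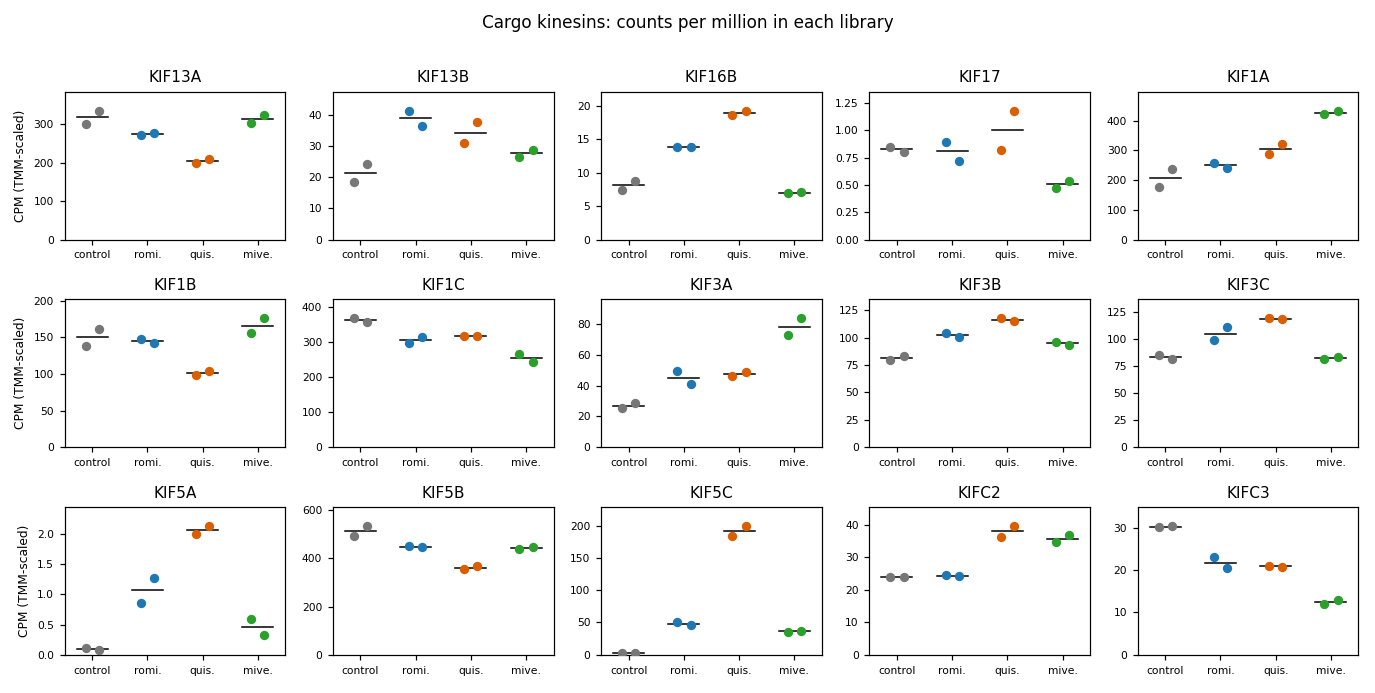
CPM (TMM-scaled) of the 15 cargo kinesins in each library; points are the 2 libraries of a group, lines their mean, and each axis starts at 0. KIF5C rises from 2.16 and 3.14 CPM to 184 and 199 with quisinostat, KIF1A to 421 and 433 with mivebresib, and KIFC3 falls in all 3 drug groups.

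The test called KIF16B and KIF13B higher with both HDAC inhibitors, and KIFC2 with quisinostat and mivebresib. KIF16B, an endosome motor, was at 7.44 and 8.77 CPM in the control, 13.8 in both romidepsin libraries, 18.6 and 19.3 with quisinostat and 7.02 and 7.09 with mivebresib. It rose by 0.77 and 1.23 with the HDAC inhibitors, and mivebresib was 1.42 below quisinostat (adjusted p = 1.39e-05). KIF13B, a kinesin-3 that binds DLG1, rose by 0.86 and 0.68 with romidepsin and quisinostat and had a log2 fold change of 0.37 with mivebresib (adjusted p = 0.0735). With 1 library left out at a time, its quisinostat value ran from 0.48 to 0.90, and that call was not always kept. KIFC2, a neuronal motor of the C-terminal class, was 0.66 higher with quisinostat and 0.57 higher with mivebresib, and its log2 fold change with romidepsin was 0.01 (adjusted p = 0.915). FOXH1 lies on the opposite strand over 17.8% of the exon bases of KIFC2, and whether counting used the strand is not given in the sources used here. FOXH1 had 0 to 7 counts in a library, beside 659 to 1245 for KIFC2.

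KIFC3, KIF13A, KIF1B, KIF1C and KIF5B fell with at least 1 drug. KIFC3, a minus-end motor at cell junctions, was at 30.0 and 30.4 CPM in the control, 22.9 and 20.5 with romidepsin, 21.0 and 20.7 with quisinostat and 12.0 and 12.9 with mivebresib. It fell by 0.47, 0.53 and 1.28 on the log2 scale, and mivebresib was below both HDAC inhibitors (adjusted p = 0.000197 and 0.000211). KIF13A, which carries melanosome proteins from endosomes, was at 301 and 335 CPM in the control and 198 and 209 CPM with quisinostat, a decrease of 0.64 (adjusted p = 0.00045). With romidepsin and mivebresib its log2 fold changes were -0.21 and -0.02 (adjusted p = 0.104 and 0.89). KIF1B, a mitochondrion and vesicle motor, fell by 0.56 with quisinostat and had log2 fold changes of -0.05 with romidepsin and 0.15 with mivebresib (adjusted p = 0.75 and 0.258). Quisinostat was below romidepsin (0.51, adjusted p = 0.00533) and below mivebresib (0.71, adjusted p = 0.000435). KIF1C, a vesicle and RNA motor, fell by 0.51 with mivebresib (adjusted p = 0.00151) and missed the threshold with romidepsin (-0.24, adjusted p = 0.0596) and quisinostat (-0.19, adjusted p = 0.0902). KIF17, a dendrite motor, had 13 to 37 counts in a library and was not called with any drug.

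Among the direct comparisons of drugs, quisinostat against romidepsin gave 4 cargo kinesins higher and 3 lower, where 21.0% and 14.6% of all genes were. Mivebresib against romidepsin gave 3 higher and 7 lower, beside 23.7% and 25.2%, and mivebresib against quisinostat gave 5 higher and 8 lower, beside 26.2% and 31.5%. The 4 higher with quisinostat than with romidepsin became 2 without any of the 4 libraries of those drugs, and the 7 lower with mivebresib than with romidepsin became 3 or 4 without any of theirs. The 8 lower with mivebresib than with quisinostat became 5 without the quisinostat or the mivebresib library of replicate 2, and the 5 higher became 3 without the quisinostat library of replicate 1 or either mivebresib library. The 3 lower with quisinostat than with romidepsin became 1 without the romidepsin library of replicate 2 or the quisinostat library of replicate 1, and the 3 higher with mivebresib than with romidepsin became 5 without the control library of replicate 2. Scaled by library size alone, 7 were higher with quisinostat than with romidepsin and 3 were higher with mivebresib than with quisinostat. Of 7 kinesins listed as enriched in neurons (KIF1A, KIF3C, KIF5A, KIF5C, KIF17, KIF21B and KIFC2), 4 were higher in the romidepsin comparison, 6 in that of quisinostat and 5 in that of mivebresib, and none was lower, where 15.2%, 28.0% and 22.2% of all genes were higher and 15.8%, 25.1% and 24.1% lower. Their medians were 0.33, 0.66 and 1.04. The higher genes include KIF5A with each drug, which had enough counts to be tested only through drug libraries. KIF21B, a kinesin-4 that limits microtubule growth in neurons and immune cells, had 45 and 39 counts in the control, 81 and 64 with romidepsin, 236 and 225 with quisinostat and 171 and 191 with mivebresib. It rose by 0.72, 2.27 and 2.12 on the log2 scale (adjusted p = 0.0211, 1.55e-05 and 3.34e-05), and the latter pair did not differ by the test (adjusted p = 0.375).

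The adaptors and light chains of cargo kinesins were described from a list of 23 genes in the table. With romidepsin 8 were higher and 2 lower, with quisinostat 6 and 6, and with mivebresib 10 and 4. Over all genes the shares higher were 15.2%, 28.0% and 22.2%, and those lower 15.8%, 25.1% and 24.1%. KLC1, the kinesin-1 light chain of neurons, rose by 0.51 with mivebresib (adjusted p = 0.00104) and had log2 fold changes of 0.16 and -0.16 with the HDAC inhibitors. KLC2 was not called with any drug, with log2 fold changes between -0.08 and 0.10. KLC3, a light chain known from sperm, rose by 0.72, 0.78 and 1.51. FEZ1, a kinesin-1 adaptor in axons, rose by 1.20, 2.23 and 0.45, and MAPK8IP1, a JNK scaffold that binds kinesin-1, by 0.58, 2.04 and 1.91.

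The cilium kinesins are motors that build or move cilia or signal from them. With quisinostat 5 of 6 were higher and 1 lower, beside 28.0% and 25.1% of all genes. The 5 include KIF19, which had enough counts to be tested only through the quisinostat libraries and could hardly be counted other than as higher. With mivebresib 1 was higher and 2 lower, beside 22.2% and 24.1%, and with romidepsin none was higher and 1 was lower, beside 15.2% and 15.8%. KIF6 (chr6:39329990-39725405), a kinesin-9 of motile cilia, had 406 and 268 counts in the control, 483 and 450 with romidepsin, 941 and 859 with quisinostat and 41 and 35 with mivebresib. The romidepsin, quisinostat and mivebresib libraries each lay outside the control range. KIF6 rose by 1.24 with quisinostat (SE 0.16, adjusted p = 0.00032) and fell by 3.13 with mivebresib (8.75-fold, SE 0.22, adjusted p = 1.64e-05), and the drugs differed from each other by 4.37 on the log2 scale (adjusted p = 1.75e-06). With romidepsin its log2 fold change was 0.41 (adjusted p = 0.0945). It was the only member of the family called in opposite directions by different drugs against the control.

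KIF27, a kinesin-4 of motile cilia, had 47 and 69 counts in the control, 69 and 81 with romidepsin, 104 and 124 with quisinostat and 198 and 182 with mivebresib. It rose by 0.79 with quisinostat and by 1.72 with mivebresib (adjusted p = 0.0155 and 0.000292), and the mivebresib value was 0.93 above that of quisinostat (adjusted p = 0.00366). With 1 library left out at a time, the quisinostat value of KIF27 ran from 0.50 to 1.12, and its call was not always kept. KIF24, a microtubule-depolymerising kinesin that holds back cilium assembly, had 209 and 196 counts in the control and 80 to 130 in the drug libraries, and fell by 1.28, 1.00 and 1.13. KIF7, a hedgehog signalling kinesin at the cilium tip, and KIF9 rose by 0.64 and 0.71 with quisinostat, and both calls were lost without the quisinostat library of replicate 2. TICRR lies on the opposite strand over 11.8% of the exon bases of KIF7, and KIF9-AS1 over 14.9% of those of KIF9. TICRR had 97 to 250 counts in a library, beside 120 to 236 for KIF7. KIF19, which keeps cilia short, had 0 and 1 counts in the control and 17 in each quisinostat library, a ratio of 30.0 (95% interval 5.03 to 1220).

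Of the 7 other kinesins tested, 2 were higher and 1 lower with romidepsin, 3 and 1 with quisinostat and 4 and 1 with mivebresib, where 15.2% and 15.8%, 28.0% and 25.1%, and 22.2% and 24.1% of all genes were. KIF12 had the largest increase of them with each drug, and had enough counts to be tested only through drug libraries. KIF12 had 1 count in each control library, 17 and 22 with romidepsin, 94 and 86 with quisinostat and 6 and 10 with mivebresib. The ratios of counts were 18.6 (4.83 to 159), 79.4 (21.7 to 661) and 8.07 (1.90 to 72.3), and the gene was called higher with each drug (adjusted p = 0.00116, 1.24e-05 and 0.00746). Its level stayed low, at 0.94 CPM per kilobase with quisinostat. KIF26A, a kinesin without motor activity, was at 10.1 and 10.2 CPM in the control and 21.3 and 22.6 CPM with mivebresib, and rose by 0.51 with quisinostat and 1.11 with mivebresib. Its relative KIF26B was at 12.5 and 17.3 CPM in the control and 8.48 and 7.09 with romidepsin, and fell by 0.93 with romidepsin and 0.58 with mivebresib, while the quisinostat libraries, at 15.3 and 15.9 CPM, lay within the control range. With 1 library left out at a time, the mivebresib value of KIF26B ran from -0.77 to -0.33, and its call was not always kept. KIF21A, the other kinesin-4 of neurons, rose by 0.64 with mivebresib (adjusted p = 0.00194). KIF2A, a depolymerising motor of both the spindle and neurites, fell by 0.28 with quisinostat (adjusted p = 0.0138), a call lost with library size alone and upper-quartile factors, and IPO11 shares 8.97% of its exon bases on the same strand. KIF25 had 1 to 16 counts in a library and was not called against the control.

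Past the study's threshold of 1.5 on the log2 scale with an adjusted p below 0.05, there were 3 kinesins for romidepsin, 6 for quisinostat and 7 for mivebresib. The share of all genes past that threshold was not counted, so these numbers have no background to be read against. The romidepsin genes were KIF5A, KIF5C and KIF12, all higher, and KIF18B was the spindle kinesin past it with quisinostat. Without the control library of replicate 1 or of replicate 2, the number of spindle kinesins lower was 11 and 10 with romidepsin, 10 and 9 with quisinostat, and 10 and 9 for mivebresib, with the lone control library assumed to vary like the others.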

How the data were processed

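Gene counts of 8 MP38 libraries, 2 for each of 4 groups, were taken as the authors deposited them: whole-number counts per gene symbol, not normalized, from strand-specific paired-end 150 bp mRNA libraries. The submitters' processing notes name hg38, and the study ran its comparisons in BioJupies with limma. The aligner and the counting are not given in the sources used here. The deposited log CPM and quantile-normalized tables were not used.

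Genes passing edgeR's filterByExpr (15085 of 35238) were TMM-scaled and fitted over all 8 libraries with edgeR 4.0.16 (R 4.3.3, quasi-likelihood test, Benjamini-Hochberg adjustment over all genes tested, threshold 0.05). The 2 HDAC inhibitors and the BET inhibitor were each compared with the control and with each other. Comparisons with the control share its 2 libraries. The biological coefficient of variation was 0.0938. With simulated counts for romidepsin against control, 97% of 200 genes changed by 1 on the log2 scale were recovered, with 9 false calls among 15085 genes. The simulated libraries all had 1 common spread, without the wider spread of the control pair, and no gene with few counts was changed. Recovery and false calls in the real data were not measured. DESeq2 1.42.0 and limma 3.58.1 (voom) were alternatives.

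CPM are counts scaled by TMM-adjusted library size. Gene positions and exon lengths are from GENCODE 29 (GRCh38), and promoter windows from RefSeq (GRCh38.p14). An exon length joins the exons of all annotated transcripts of a gene, whichever of them the cells made. Shares and ranks per kilobase depend on that choice. Ratios of genes with 3 or fewer counts in each library of a group have exact binomial intervals. All kinesins, CENPE, KLC1, KLC2, KIFAP3, TPX2, PRC1, AURKB and, of each partner list, the 3 genes with the largest change among those called were to be named. RACGAP1 was chosen after its values were seen, and DCTN6 and DYNC1H1 are also named outside this rule. The members and lists were chosen with earlier results of these data known.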

Additional observations from a re-analysis of the deposited data

How the results depend on the processing

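The counts per drug rest on 2 libraries a group, and leaving out 1 of a pair assumes that the lone library varies like the others. At this depth genes with a few counts, such as KIF5A, KIF12 and KIF19, have wide intervals. The numbers of spindle kinesins lower with romidepsin and with quisinostat than in the control stayed within 1.5 times of 11 and 10 under every alternative run, and all 83 called changes of single kinesins kept their sign, while 20 of them lost their call under at least 1 alternative. Of the 37 changes not called against the control, 12 gained a call under at least 1 alternative. With library size alone the median log2 fold change of all genes was 0.20 for quisinostat against control, 0.19 against romidepsin and -0.21 for mivebresib against quisinostat, and with upper-quartile factors 0.13, 0.10 and -0.12. Where a number moved, the cause was not tested. When only the 4 libraries compared were fitted, 11 calls were lost, namely KIF14, KIF20B, KIF21B, KIF3B and KIF3C in the romidepsin comparison, KIF14 and KIF2A in that of quisinostat, and KIF15, KIF18A, KIF2C and KIF3B in that of mivebresib, which left 9, 9 and 8 spindle kinesins lower.

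DESeq2 called 2 cargo kinesins lower with romidepsin than in the control in place of 1. Library size alone gave 2 spindle kinesins lower and 7 cargo kinesins higher with quisinostat than with romidepsin, 4 spindle kinesins lower with mivebresib than with romidepsin, and 4 spindle and 3 cargo kinesins higher with mivebresib than with quisinostat. Upper-quartile factors gave 4 spindle kinesins lower with mivebresib than with romidepsin and 5 higher than with quisinostat. With only the 4 libraries compared, 7 spindle kinesins were lower with quisinostat and 4 with mivebresib than with romidepsin.

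Without 1 library at a time, spindle kinesins lower with mivebresib than in the control numbered 7 to 10 and those higher 0 to 1, and cargo kinesins lower with romidepsin 0 to 2. For quisinostat against romidepsin there were 2 to 7 spindle kinesins lower, 1 to 3 cargo kinesins lower and 2 to 6 higher. For mivebresib against romidepsin there were 0 to 4 spindle kinesins lower and 1 to 4 higher, and 3 to 7 cargo kinesins lower and 3 to 5 higher. For mivebresib against quisinostat there were 4 to 8 spindle kinesins higher, and 5 to 9 cargo kinesins lower and 3 to 5 higher.

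Some changes that were not called turned sign. With library size alone and upper-quartile factors, the log2 fold change with quisinostat was 0.19 and 0.12 for KIF11 and 0.20 and 0.13 for KIF18A, close to the medians of all genes, and 0.0092 with the former for KIF1C. With romidepsin it was 0.058 and 0.069 for KIF18A, 0.038 and 0.051 for KIF17, 0.027 and 0.038 for KIF1B and 0.017 and 0.030 for KIF9, and with mivebresib 0.0044 and 0.029 for KIF13A and 0.0061 and 0.032 for KIF3C. KIF18A with romidepsin was at 0.0014 with DESeq2 and 0.010 with only the 4 libraries. Without 1 library, values ran from -0.15 to 0.12 for KIF11, -0.11 to 0.087 for KIF18A, -0.044 to 0.49 for KIF17 and -0.17 to 0.32 for KIF26B with quisinostat, and from -0.071 to 0.060 for KIF13A and -0.050 to 0.044 for KIF3C with mivebresib. With romidepsin they ran from -0.19 to 0.11 for KIF17, -0.079 to 0.077 for KIF18A, -2.37 to 3.18 for KIF19, -0.13 to 0.066 for KIF1B, -1.33 to 0.34 for KIF25, -0.029 to 0.33 for KIF7 and -0.12 to 0.011 for KIF9.

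The labels number the libraries 1 and 2 in each group without saying what a number shares. Deviations of same-numbered libraries from their group means correlated across genes between -0.326 and 0.281 over the 6 pairs of groups, so the numbers were not taken to pair the libraries. With the replicate block, 11, 10 and 10 spindle kinesins were lower with romidepsin, quisinostat and mivebresib than in the control, where KIF15 was no longer called with mivebresib. With the block 7, 9 and 5 cargo kinesins were higher, where KIF3B was no longer called with mivebresib.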

Other observations

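Cytoplasmic dynein and its cofactor dynactin carry cargo towards the minus ends of microtubules, against most kinesins. Of 22 dynein, dynactin and adaptor genes tested, 5 were lower and 1 higher with romidepsin, 10 and 2 with quisinostat and 7 and 2 with mivebresib, with medians of -0.13, -0.27 and -0.09 on the log2 scale. Over all genes the shares lower were 15.8%, 25.1% and 24.1%, and those higher 15.2%, 28.0% and 22.2%. DCTN6, a subunit of the pointed end of dynactin, fell by 0.66, 0.84 and 0.84 with romidepsin, quisinostat and mivebresib (adjusted p = 0.00214, 0.000217 and 0.000282). NDE1, a dynein regulator that also acts in mitosis, fell by 0.40, 0.55 and 1.18 (adjusted p = 0.016, 0.00158 and 4.13e-05). DYNLT3, a dynein light chain, rose by 0.90 with quisinostat (adjusted p = 0.000307), and DYNC1I1, the neuronal intermediate chain, fell by 1.04 with mivebresib (adjusted p = 0.0114). The heavy chain gene DYNC1H1 was not called with any drug.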
